A study of Rattus norvegicus with 8 samples.

Results

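Cytochrome P450 and glucuronosyltransferase genes were followed across the renal cortex and the outer medulla of rats given a stone-forming treatment, phlorizin, both or neither. All genes on the array with a symbol of the form Cyp, number, letter, number, or with a symbol that starts with Ugt and a number, were taken, without Cyp24a1 and Cyp27b1, the vitamin D enzymes. This gave 68 genes of the 15037 named genes on the array, 60 of them P450 genes and 8 UGT genes. Of the 68, 27 had a value on at least 1 array that reached the median of all values in the table, 7.54 on the log2 scale, and these 27 were tested. The other 41 did not, and 28 of them stayed below 5.68, the highest mean of the background probes on any array. No gene of either family had more than 1 probe set.

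The animals were male Sprague-Dawley rats, 10 weeks old, and each kidney zone of each treatment was represented by 1 Clariom S array, a chip that reads most genes with 1 probe set each. Rats were left as controls, were given ethylene glycol and alfacalcidol over 2 weeks (called EG here), were given phlorizin, or were given EG and phlorizin. Ethylene glycol is turned into oxalate, alfacalcidol is a vitamin D analogue, and together they induce calcium oxalate stones, while phlorizin blocks the sodium-glucose cotransporters. The dose and route of each agent, and whether RNA of several animals was pooled, are not given in the sources used here. Both arrays of a treatment can come from the same animals, since kidneys were divided. With 1 array per zone and treatment the comparisons between treatments in a zone have no replicate and carry no p-value. Values are RMA values, taken to be on a log2 scale from their range of 2.28 to 19.7, so a difference of 1 is a doubling. In bulk tissue, fewer cells of a type and less RNA per cell cannot be told apart.

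P450 enzymes are heme proteins of the endoplasmic reticulum and the mitochondria that insert oxygen into fatty acids, steroids, vitamins and drugs with electrons from NADPH. UDP-glucuronosyltransferases join glucuronic acid to such products so that they can be excreted. In the kidney most of both lies in the proximal tubule, where the Cyp4a enzymes hydroxylate arachidonic acid at its end and the Cyp2c and Cyp2j enzymes turn it into epoxides, lipid mediators that act on vessels and on salt transport.

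Against the zone labels, the outer medulla had lower values of each of 12 genes that mark the first proximal segments and higher values of 6 of 8 that mark the thick ascending limb (limma, adjusted over all 13163 tested probe sets). The array of the EG cortex stood apart in its spike-in controls. The mean of its poly-A spikes was 6.42, below the 7.67 to 8.23 of the remaining cortex arrays and the 7.46 to 7.66 of the outer medulla. EG with phlorizin against phlorizin does not use this array, and the plot of EG differences gives both arms for all 27 genes. Other tissues that make these enzymes were checked too. Of 8 liver markers, Alb, Apoa1, Serpina1 and Tat did not exceed 5.16, below background, and 3 passed the filter, of which Fgb reached 11.66 on the EG array of the cortex. Apob reached 7.45. Of 6 adrenal markers, Akr1b7 alone passed the filter, at up to 8.57, Star stood between 5.89 and 7.41, above background on all arrays, Mc2r reached 5.93, and Dbh, Th and Chga did not exceed 5.56.

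More of the tested genes were higher in the cortex than in the outer medulla. Of the 27 tested genes, 15 fell in the outer medulla and 7 rose there (limma, adjusted p under 0.05, treatment as a block, n = 4 pairs of arrays). Over all tested probe sets, 18.8% fell and 32.7% rose. The median zone difference, outer medulla minus cortex, was -1.34 for these genes and 0.18 for all tested probe sets. Without the 2 EG arrays, 16 fell and 7 rose, and without the pair of another treatment 11 or 12 fell and 5 to 7 rose. Over all tested probe sets, these fits called from 35.5% to 56.8% in either direction. Cyp2e1, Ugt2b35, Cyp2d4, Cyp2t1 and Cyp2c24 passed the filter only through cortex arrays, and Cyp27a1 only through those of the outer medulla. The zone calls of these genes are therefore not read as support. Without the filter, 21 of the 68 genes fell and 8 rose, and 31.5% of all 23176 probe sets were called in either direction. The plot of the levels on all arrays shows the spread of the zone differences.

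**Figure D1:**
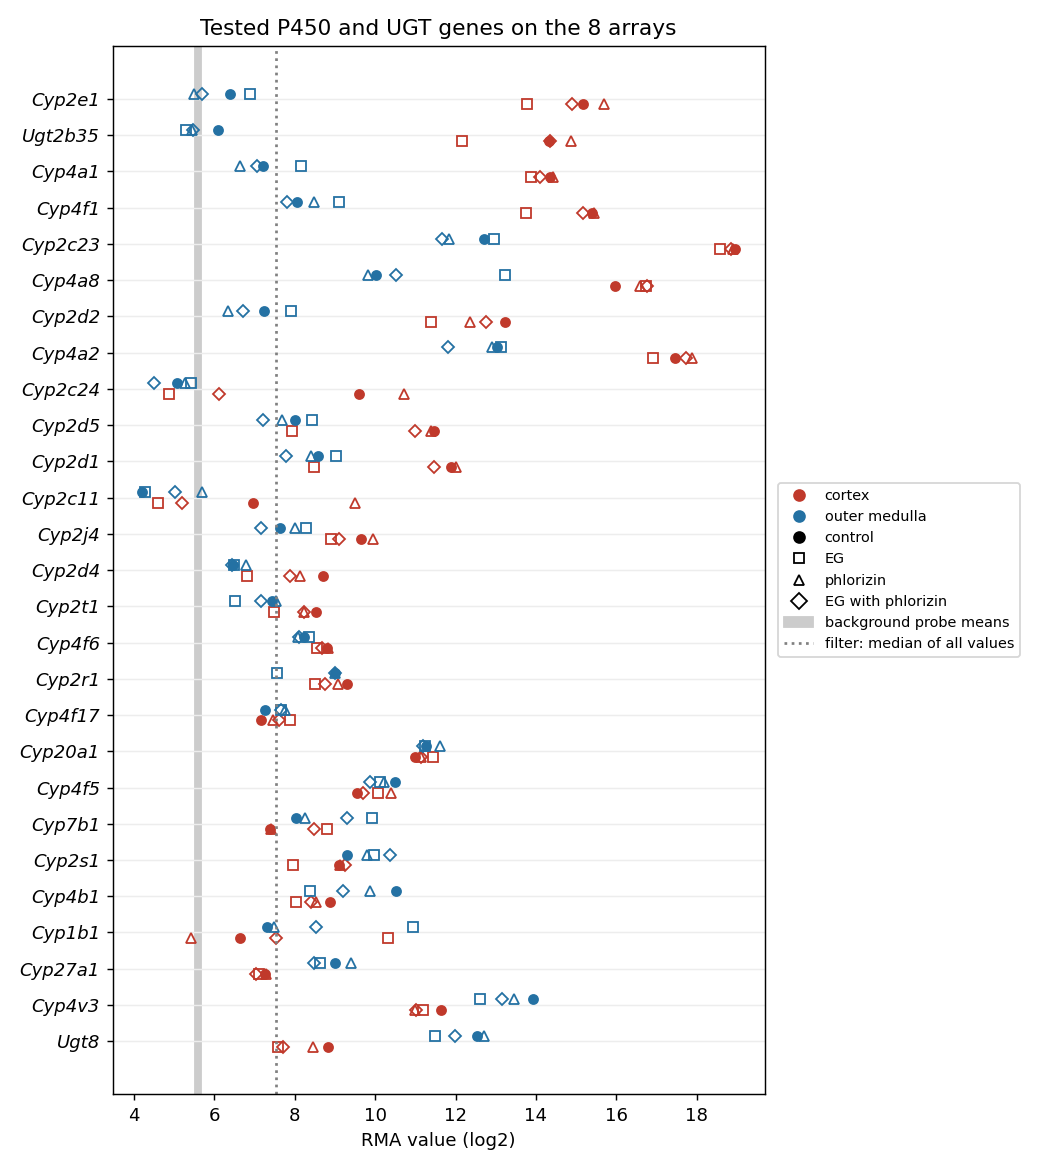
Each row is 1 of the 27 tested genes and each point 1 array, with the RMA value on a log2 scale on the horizontal axis, the zone by colour and the treatment by shape. Genes are ordered by zone difference, from -8.77 for Cyp2e1 to 4.04 for Ugt8, outer medulla minus cortex. The grey band spans the mean of the background probes on the 8 arrays, 5.53 to 5.68, and the dotted line is the filter at 7.54.

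Among the Cyp4 fatty acid hydroxylases, 9 of 13 were tested, and 5 fell and 2 rose in the outer medulla. Cyp4a2, one of the main arachidonic acid hydroxylases of the rat kidney, stood at 17.46 in the control cortex, 16.91 with EG, 17.89 with phlorizin and 17.73 with both. In the outer medulla it stood at 13.02, 13.12, 12.90 and 11.81 in the same order, and the zones did not overlap. It fell by 4.79 between zones (SE 0.33). Cyp4a1, best known from the liver's response to peroxisome proliferators, fell by 6.93 (SE 0.32). It stood at 14.36, 13.88, 14.43 and 14.10 in the cortex, against 7.22, 8.15, 6.65 and 7.06 in the other zone. Cyp4f1, which acts on leukotrienes and arachidonic acid, fell by 6.58 (SE 0.45), with 15.39, 13.75, 15.45 and 15.16 in the cortex and 8.05, 9.09, 8.48 and 7.81 in the outer zone. Cyp4a8 fell by 5.62 (SE 0.50) with a wide spread in the outer medulla, from 9.82 to 13.23. The genes that rose there were Cyp4v3, the rat counterpart of a fatty acid hydroxylase of the human retina, by 2.08 (SE 0.20), and Cyp4b1 by 1.03 (SE 0.23, limma adjusted p = 0.0104). Cyp4f6 fell by 0.53, a call that was lost in 3 of the 4 fits that left out a treatment, and Cyp4f17 and Cyp4f5 were not called. Cyp4f17 and Cyp4f6 were, with Cyp20a1, the tested genes whose values varied least over the 8 arrays, by 0.71, 0.75 and 0.63.

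Of the 10 epoxygenase-type genes (Cyp2c and Cyp2j), 4 were tested and 3 fell in the outer medulla. Cyp2c23, the main arachidonic acid epoxygenase of the rat kidney, was bright on all arrays. It stood at 18.95, 18.59, 18.90 and 18.85 in the cortex with control, EG, phlorizin and both, and at 12.72, 12.95, 11.83 and 11.67 in the outer medulla. Its zone difference of -6.53 had an SE of 0.28 (limma adjusted p = 1.94e-05). Cyp2j4, an epoxygenase of the Cyp2j subfamily, fell by 1.62 (SE 0.26), with 9.64, 8.91, 9.95 and 9.10 in the cortex and 7.64, 8.29, 8.01 and 7.17 in the outer zone. Cyp2c24 fell by 2.75 (SE 0.93, limma adjusted p = 0.0452) and was called under 6 of 11 settings. Cyp2c11 differed by -1.76 (SE 0.62, limma adjusted p = 0.0517). The 6 others did not pass the filter. Cyp2c7, Cyp2c12, Cyp2c13 and Cyp2c22 did not exceed 5.38, below background, and Cyp2j3 reached 7.12.

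The other Cyp2 genes, mostly drug-metabolising enzymes, gave 8 tested of 18, of which 6 fell and 1 rose. Cyp2e1, which oxidises ethanol and other small molecules, stood at 15.18, 13.77, 15.69 and 14.90 in the cortex with control, EG, phlorizin and both. In the outer medulla it stood at 6.38, 6.88, 5.50 and 5.69, the latter pair near background, and the fitted zone difference was -8.77 (SE 0.48). Cyp2d2, a drug-oxidising enzyme, stood at 13.22, 11.40, 12.35 and 12.76 in the cortex and at 7.23, 7.90, 6.34 and 6.72 in the outer zone. Its zone difference was -5.39 (SE 0.44), that of Cyp2d5 -2.62 (SE 0.71) and that of Cyp2d1 -2.51 (SE 0.70). The calls of Cyp2d1 and Cyp2d5 were lost when the control, the phlorizin or the EG with phlorizin pair was left out, with limma adjusted p-values of up to 0.108 and 0.0995 over all settings. Cyp2s1, an enzyme of epithelia, rose in the outer medulla, from a cortex range of 7.95 to 9.24 to one of 9.30 to 10.36 (SE of the difference 0.29). That call was lost without the phlorizin pair and without the pair given both agents. Cyp2r1, the main vitamin D hydroxylase of the liver, differed by -0.27 (SE 0.21, limma adjusted p = 0.319).

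Outside these subfamilies, 5 genes were tested besides Cyp1b1. Ugt2b35, a glucuronosyltransferase, stood at 14.32, 12.15, 14.88 and 14.35 in the cortex with control, EG, phlorizin and both, and between 5.29 and 6.08 in the other zone, at or near background. Its fitted zone difference was -8.35 (SE 0.39). Ugt8 makes galactosylceramide, a membrane lipid, rather than glucuronides. It went the other way, with 12.54, 11.50, 12.70 and 11.99 in the outer medulla against 8.83, 7.59, 8.45 and 7.70 in the cortex, and rose by 4.04 (SE 0.16, limma adjusted p = 1.68e-05). Both sterol enzymes tested rose in the outer medulla, Cyp27a1, the mitochondrial sterol hydroxylase, by 1.71 (SE 0.16) and Cyp7b1, the oxysterol hydroxylase, by 0.85 (SE 0.14). Cyp27a1 stood at 7.26, 7.10, 7.28 and 7.04 in the cortex and at 9.01, 8.63, 9.40 and 8.49 in the outer zone. Cyp1b1 rose by 1.09 (SE 0.26), and that call was lost without the pair given both agents, among others (2 of 12 settings). The other 6 UGT genes were not tested, and their highest value was 6.97. Neither were the 5 genes of steroid hormone synthesis, whose highest value was 6.01, the 3 Cyp3a genes (5.34) or the 2 retinoic acid hydroxylases (5.74).

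The EG cortex had lower P450 and UGT values over much of the families. Of 27 tested genes, 12 were at least 1 lower on the log2 scale on the EG than on the control array of the cortex, 44.4% against 12.7% of all tested probe sets, and 2 were at least 1 higher against 9.66%. The median difference was -0.79, beside -0.07 for all tested probe sets. Over all tested probe sets that fell in the outer medulla it was also -0.79, against -1.41 for the 15 genes that fell there. Under a stricter filter, on the mean over all arrays, 9 of 24 genes were at least 1 lower. The 12 include Cyp2c11 and Cyp2c24, and all use the EG cortex array with the low spike-ins. The part of cortical expression in these lower values was not tested. The outer medulla had 4 genes at least 1 lower (background 9.69%) and 4 at least 1 higher (8.58%), with a median of 0.23 beside -0.05. Signs were opposite in the zones for 16 of the 27 genes, or 59.3%, and for 29.5% of all tested probe sets. The 16 are counted by sign alone and include Cyp2c11 and Cyp2c24, below background on the control and EG arrays of the outer medulla. The test of the EG difference between zones called none of the 27 and 3 of 13163 probe sets (0.0228%), and 4 of the 27 had an unadjusted p under 0.05 in it (10.5% of all probe sets). The 4 were Cyp2c11, Cyp2c24, Cyp4b1 and Cyp2s1. Both Cyp2c genes passed the filter only through cortex arrays without EG and stood at or near background in the outer medulla. Their unequal EG differences are thus not read here.

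**Figure D2:**
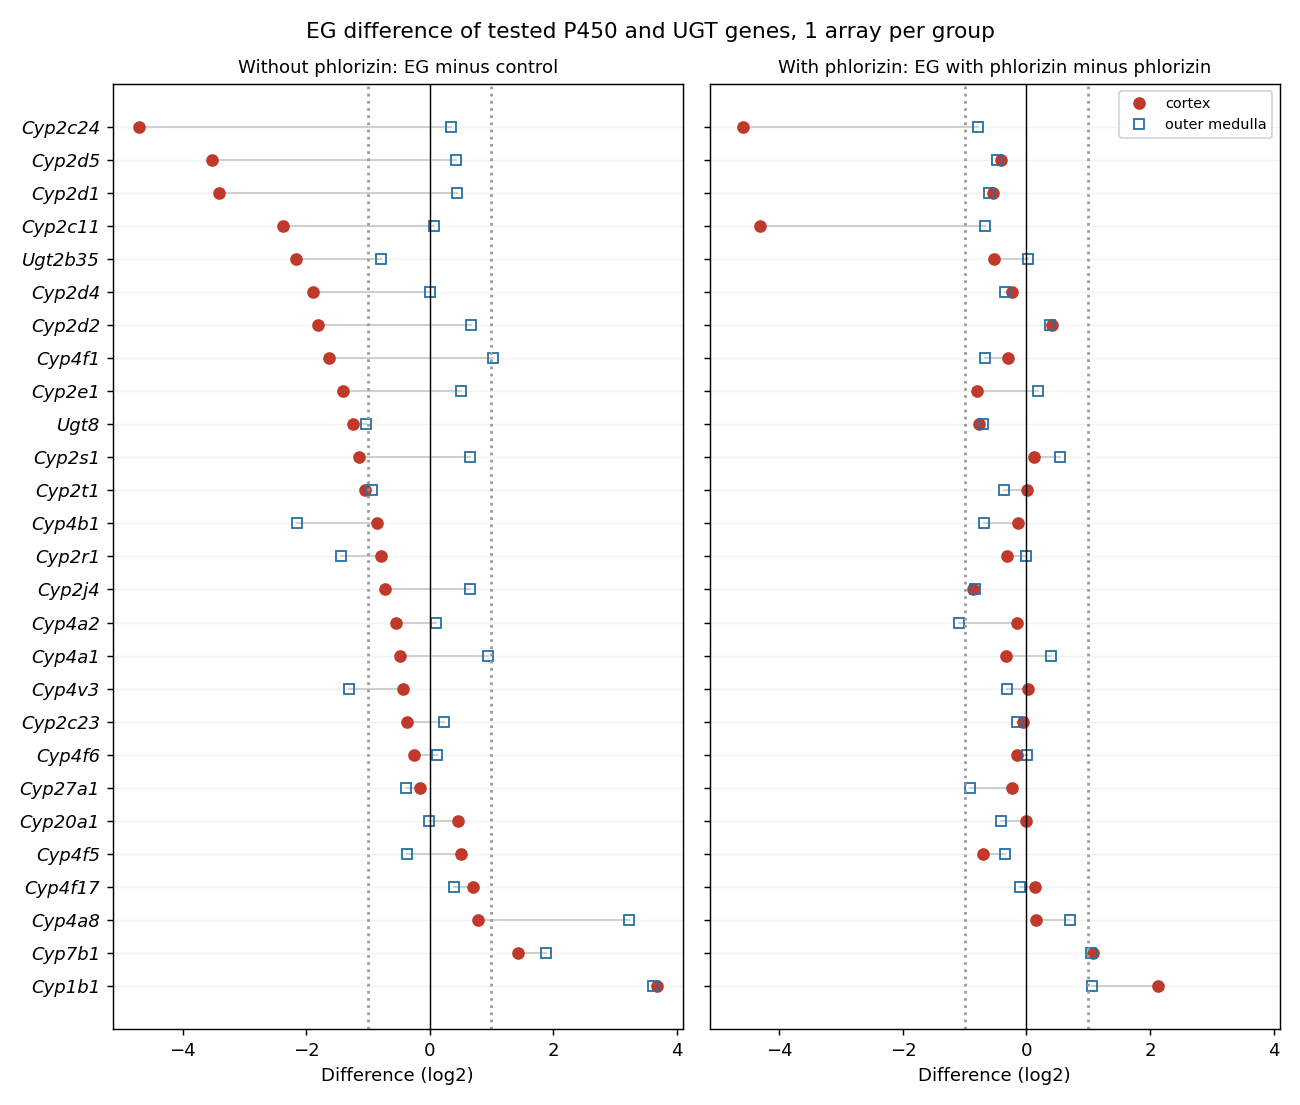
EG differences on the log2 scale for the 27 tested genes, without phlorizin on the left and with phlorizin on the right, with filled circles for the cortex and open squares for the outer medulla. Dotted lines mark differences of 1 in size. On the left most cortex points lie below 0, down to -4.71 for Cyp2c24, and on the right only Cyp2c24 and Cyp2c11 lie below -1 in the cortex.

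Cyp2c24 and Cyp2c11 had the lowest EG differences of the families that were low both with and without phlorizin. Cyp2c11, in liver the male-specific member of the subfamily, stood at 6.96 in the control cortex, 4.59 with EG, 9.50 with phlorizin and 5.19 with both. Cyp2c24, a related gene on the same chromosome, stood at 9.59, 4.87, 10.71 and 6.12 in the same order. Both arrays with EG lay below both arrays without it, and for Cyp2c11 both lay below the background mean, so its EG differences of -2.37 and, under phlorizin, -4.31 are bounds. So is that of Cyp2c24 without phlorizin, -4.71, while under phlorizin it was -4.59. Cyp2c11 passed the filter only through the phlorizin array of the cortex, and Cyp2c24 only through that and the control array, so their places among the tested probe sets are not read here. Neither passed a stricter filter on the mean of the 8 values. In the outer medulla Cyp2c24 stood between 4.50 and 5.43 and Cyp2c11 between 4.21 and 5.69, at or near background, and neither could show a fall there.

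In the limma fit of EG over both zones, Cyp2c24 differed by -2.43 (SE 0.23, adjusted p = 0.0612) and Cyp2c11 by -1.82 (SE 0.34, adjusted p = 0.0837), and neither was called. Both were called with each array centred on its median and without the filter, settings that called 5.67% and 2.72% of all probe sets. Their limma adjusted p-values ranged from 0.00686 to 0.737 and from 0.0262 to 0.556 over all settings. That fit called 5 probe sets (0.038%), all higher, and none of the 27, of which 3 were higher and 8 lower at an unadjusted p under 0.05 (9.85% and 12.9% of all). With the 4 cortex arrays alone, limma called Cyp2c24, which fell by 4.65 (SE 0.29, adjusted p = 0.016), as 1 of 7 probe sets (0.0532%), and Cyp2c11 had an adjusted p of 0.105. Both genes passed the filter only through cortex arrays without EG, the side of this fit where they were high. The call of Cyp2c24 is therefore not read as support. With the 4 outer medulla arrays alone it called 355 probe sets (2.7%) and none of the 27, of which Cyp7b1 had the lowest adjusted p, 0.0563. The spread in these fits is that between the arms with and without phlorizin, not between animals.

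The promoters of this pair are shown because both genes were lower with EG and higher with phlorizin in the cortex. They are RefSeq windows on GRCr8, from 250 bases before to 50 after the gene start. Capitals mark the longest run that both share, 45 bases, which begins at position -63 of Cyp2c11 and -61 of Cyp2c24, counted from the gene start. Both were on the plus strand, at chr1:246174966-246175265 and chr1:246286091-246286390.
Cyp2c11: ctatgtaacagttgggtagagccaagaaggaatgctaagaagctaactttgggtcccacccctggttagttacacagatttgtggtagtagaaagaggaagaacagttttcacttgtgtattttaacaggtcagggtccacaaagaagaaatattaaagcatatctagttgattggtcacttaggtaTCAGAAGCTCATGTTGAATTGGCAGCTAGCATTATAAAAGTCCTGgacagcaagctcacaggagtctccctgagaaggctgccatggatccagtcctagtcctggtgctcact
Cyp2c24: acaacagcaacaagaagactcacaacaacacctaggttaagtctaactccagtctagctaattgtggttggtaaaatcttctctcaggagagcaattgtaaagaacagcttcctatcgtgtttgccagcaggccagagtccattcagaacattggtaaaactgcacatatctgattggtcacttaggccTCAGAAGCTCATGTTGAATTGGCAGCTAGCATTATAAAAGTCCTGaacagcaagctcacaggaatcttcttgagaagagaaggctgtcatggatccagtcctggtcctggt
In a global alignment, 197 of 291 aligned bases were identical (67.7%). The shared run holds the letters TATAAA, the core of a promoter element that sets the start site, at -31 and -29. On either strand TATAAA was in 5 of the 23 promoters found for tested genes, those of both Cyp2c genes, Cyp2d1, Cyp2d5 and Cyp2e1, and in 14.3% of all 27457 promoters. The letters TTCNNNGAA, the core of a STAT site, were in neither window, and 8.68% of all promoters held them. Promoters were found for 58 of the 68 genes.

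The Cyp2d genes of the cortex were low on the EG array and close to the control with EG and phlorizin. Cyp2d1 stood at 11.88 in the control cortex, 8.47 with EG, 12.01 with phlorizin and 11.47 with both. Cyp2d5 stood at 11.47, 7.94, 11.40 and 10.99. Only the EG array was low for this pair, with differences of -3.41 and -3.53 from the control, against -0.54 and -0.41 under phlorizin. Cyp2d4 (-1.89 and -0.24) and Cyp2d2 (-1.81 and 0.41) had smaller differences of the same kind. In the outer zone Cyp2d1 differed by 0.45 and Cyp2d5 by 0.42, and all 4 genes by 0.01 to 0.67. These results rest on the EG cortex array with the low spike-ins. On that array the proximal transporter genes Slc6a19 and Slc22a12 were lower too (11.08 against 14.32 and 9.62 against 12.55), while the median over the 12 markers of the first proximal segments was -0.70 and 3 of 12 were at least 1 lower, against -0.20 and 0 under phlorizin. Of the 7 tested markers of the straight segment 6 were at least 1 lower, as were 7 of the 8 of the thick ascending limb. Their part in the P450 values was not tested.

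Cyp2d1 and Cyp2d5 lie on the same chromosome with promoters that are nearly copies of each other, shown here because their values ran in parallel on all 8 arrays. Capitals mark the longest shared run, 66 bases. The windows are on the minus strand of GRCr8, at chr7:115793381-115793680 and chr7:115784438-115784737.
Cyp2d1: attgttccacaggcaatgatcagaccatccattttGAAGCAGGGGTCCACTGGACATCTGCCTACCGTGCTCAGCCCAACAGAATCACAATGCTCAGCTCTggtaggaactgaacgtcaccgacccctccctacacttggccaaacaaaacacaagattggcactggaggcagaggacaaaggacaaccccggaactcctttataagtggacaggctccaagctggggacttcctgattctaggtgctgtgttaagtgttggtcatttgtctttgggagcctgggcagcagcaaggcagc
Cyp2d5: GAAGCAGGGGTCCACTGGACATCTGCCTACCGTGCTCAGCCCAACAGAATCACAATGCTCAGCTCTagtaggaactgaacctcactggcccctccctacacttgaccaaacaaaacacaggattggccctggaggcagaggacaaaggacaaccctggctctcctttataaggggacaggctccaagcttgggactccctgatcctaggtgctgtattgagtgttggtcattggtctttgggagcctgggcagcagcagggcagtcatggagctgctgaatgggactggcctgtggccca
Of their aligned bases 246 of 265 were identical (92.8%), the most of the 253 pairs of tested genes, and the longest shared run outside these and the Cyp2c pair was 13 bases. Probe sequences were not used here. Where transcripts are this alike, a probe set can read both, so the values of Cyp2d1 and Cyp2d5 may not be separate measurements, and the same holds for other close relatives such as the Cyp4a genes.

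Cyp1b1 and Cyp7b1 were higher with EG in both zones and both arms. Cyp1b1, a P450 of steroids and aromatic compounds that the dioxin receptor induces and that mesenchymal cells express, stood at 6.64 in the control cortex, 10.32 with EG, 5.41 with phlorizin and 7.54 with both. Its outer medulla values were 7.32, 10.94, 7.48 and 8.54. EG was highest in each zone, and the differences were 3.68 and 3.62 without phlorizin and 2.13 and 1.06 with it. The 2.13 starts from 5.41, which is below background, and is a bound. Cyp7b1, which clears oxysterols, stood at 7.38, 8.81, 7.40 and 8.47 in the cortex and at 8.02, 9.91, 8.25 and 9.29 in the outer medulla, with differences of 1.43 and 1.89 and, under phlorizin, 1.08 and 1.04. They were the 2 genes of the 27 at least 1 higher in both zones, against a background of 4.90% without phlorizin and 0.995% with it. The limma fit of EG over both zones gave Cyp1b1 2.62 (SE 0.47, adjusted p = 0.0809) and Cyp7b1 1.36 (SE 0.24, adjusted p = 0.0809), and called neither. Cyp1b1 passed the filter only through arrays with EG, the side of this fit where it was high. Its place in this fit and in the count over both zones is therefore not read as support. Cyp1b1 and Cyp7b1 were both called with each array centred on its median, without the filter, and with the 8 arrays as samples. Over all probe sets these settings called 5.67%, 2.72% and 12.9%, against 0.038% in the main fit. The last takes both zones of a treatment as samples, with the treatment as a random block, though they can share animals.

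Fibroblast and macrophage markers were higher with EG, as Cyp1b1 was. The 6 tested fibroblast markers were all at least 1 higher with EG in each zone, and the mean log2 level over the 7 on the array was 12.59 against 9.93 in the cortex and 13.04 against 10.70 in the other zone, with 10.61 and 11.99 when phlorizin was added. Lum, a fibroblast marker, did not exceed 5.01. All 7 tested macrophage markers were at least 1 higher in the cortex, and 6 of them were in the other zone, with list means of 10.26 against 7.44 and of 10.85 against 8.56. Their part in the Cyp1b1 values was not tested. Ahr, which encodes the dioxin receptor, had EG differences of 0.60 and 0.58 without phlorizin, cortex first, and of -0.29 and 0.04 with it. Cyp1a1, another gene that it induces, did not exceed 4.75.

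The promoter window of Cyp1b1, at chr6:21094315-21094614 on the plus strand of GRCr8, is shown because its gene had the highest EG difference of the families. Capitals mark both matches to GCGTG, the core of a dioxin response element, on either strand.
Cyp1b1: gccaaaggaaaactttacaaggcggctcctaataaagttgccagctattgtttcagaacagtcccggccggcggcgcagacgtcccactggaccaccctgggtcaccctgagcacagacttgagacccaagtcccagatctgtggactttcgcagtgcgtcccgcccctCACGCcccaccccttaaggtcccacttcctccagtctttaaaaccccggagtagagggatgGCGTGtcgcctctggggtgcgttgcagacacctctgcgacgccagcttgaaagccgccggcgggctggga
The matches begin at -81 and -20, and 31.1% of all promoters held these letters, as did 8 of the 23 of tested genes. A match of 5 letters is a description and not a site.

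Some fatty acid hydroxylases of the cortex had higher values on the EG array of the outer medulla. Cyp4a8 stood at 10.02 in the control outer medulla, 13.23 with EG, 9.82 with phlorizin and 10.52 with both, so that the EG array alone was high. In the cortex it stood at 15.96, 16.75, 16.60 and 16.76. Cyp4f1 differed by 1.03 and Cyp4a1 by 0.94 in the outer zone, against -1.63 and -0.48 in the cortex. Of the 15 tested genes that fell in the outer medulla in the zone fit, 13 were above and 2 below the control on the EG array of the outer medulla (median 0.42), and 14 were below it in the cortex (median -1.41). The 13 are counted by sign alone. They include Cyp2d4, at 6.47 and 6.48, Cyp2c24, below background at 5.08 and 5.43, and Cyp2d1 and Cyp2d5, which may not be separate measurements. Over all tested probe sets that fell in the outer medulla, 44.7% were above the control on the former array (median -0.10) and 16.7% on the latter (median -0.79). Under phlorizin 6 were above and 9 below in the outer medulla (median -0.35). Markers of the first proximal segments were uneven on the EG array of the outer medulla. Slc7a7 went from 9.40 to 11.77 and Lrp2, which encodes megalin, from 11.10 to 12.06, while Slc22a8 went from 6.23 to 4.82, and the median over the 12 was 0.27. The share of cortex in the dissected tissue was not tested.

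A few genes were lower with EG in both zones. Ugt8 had differences of -1.24 and -1.03, and -0.76 and -0.71 under phlorizin. It was the only one of the 27 at least 1 lower in both zones without phlorizin, 3.7% beside a background of 4.47%, so the count is no higher than over all tested probe sets. Cyp4b1, a lung-type P450, stood at 10.51, 8.37, 9.87 and 9.19 in the outer medulla and had differences of -0.85 in the cortex and -2.14 there, against -0.14 and -0.68 under phlorizin. Cyp2t1 differed by -1.04 and -0.93, against 0.01 and -0.37 under phlorizin. Cyp2r1 differed by -0.79 and -1.44, and Ugt2b35 by -2.17 in the cortex. Ugt2b35 and Cyp2r1 were close to the phlorizin array when both agents were given, with differences of -0.53 in the cortex for Ugt2b35 and of -0.32 and -0.01 for Cyp2r1. Below the filter, Cyp39a1, an oxysterol hydroxylase, went from 6.85 to 4.62 in the EG cortex and stood at 6.42 with EG and phlorizin. Its highest value, 7.45, lay just under the filter, as did that of Cyp2f4 (7.39), while Cyp4f17 (7.88) lay just above it.

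Under phlorizin most EG differences of the families were smaller in size, as they were over the whole array. They were smaller for 23 of 27 cortex values (85.2%, beside 73.6% of all tested probe sets) and 18 of 27 outer medulla values (66.7% beside 66.3%). In the cortex 2 were at least 1 lower (background 1.55%) and 2 at least 1 higher (2.43%), and in the outer medulla 1 (3.01%) and 2 (3.65%). With the stricter filter the cortex had 0 lower, since Cyp2c11 and Cyp2c24 did not pass it. The medians were -0.24 and -0.34, beside -0.05 and -0.02 for all tested probe sets. Cyp4a2 was the gene at least 1 lower in the outer medulla, at 11.81 against 12.90.

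**Figure D3:**
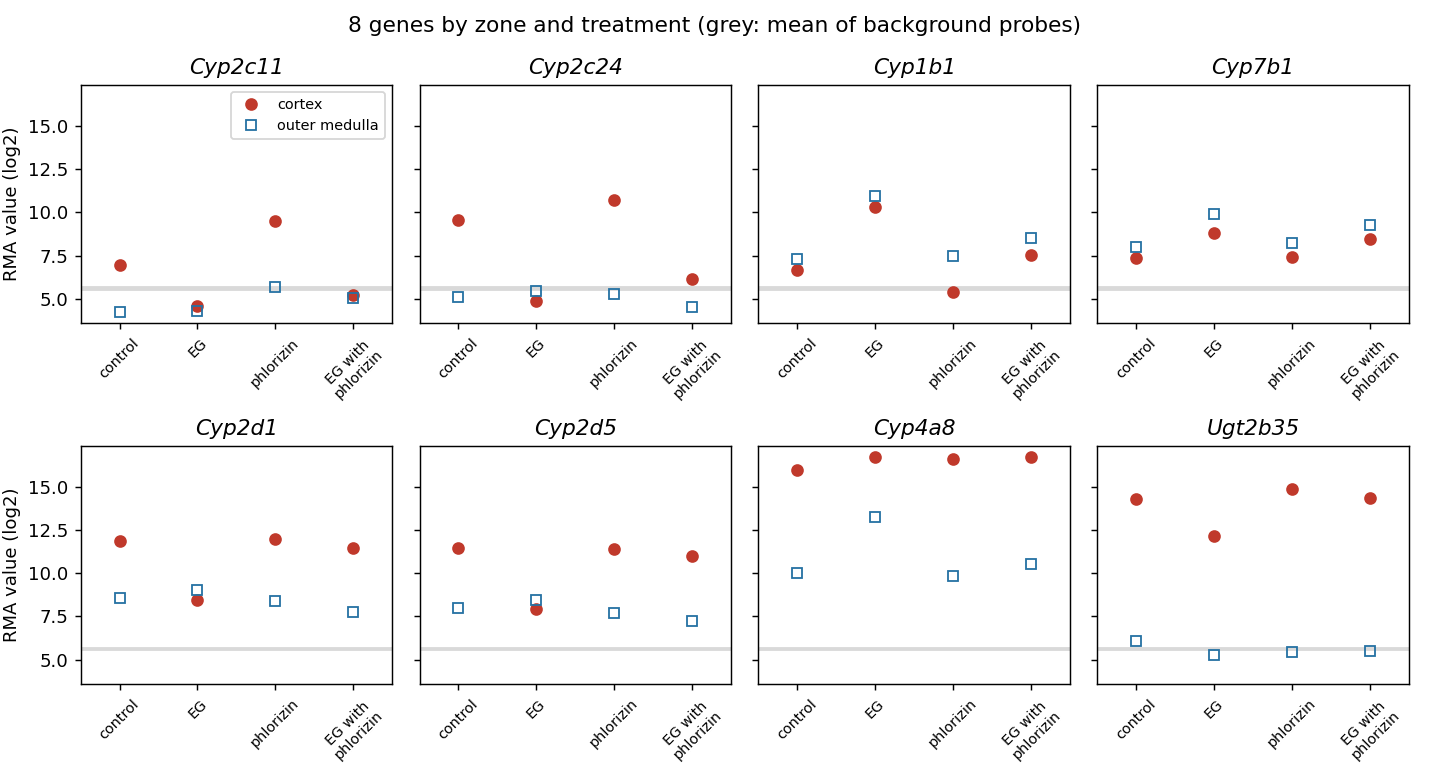
RMA values on a log2 scale (vertical axis) by treatment for 8 genes, 1 array per point, with filled circles for the cortex and open squares for the outer medulla. The grey band is the mean of the background probes, 5.53 to 5.68. Cyp2c11 and Cyp2c24 are low with EG in the cortex in both arms, Cyp2d1 and Cyp2d5 on the EG array alone, and Cyp4a8 is high on the EG array of the outer medulla alone.

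Without EG, 3 genes differed by at least 1 between the phlorizin and control arrays, Cyp2c11, Cyp2c24 and Cyp1b1. Cyp2c11 was 2.54 higher in the cortex, from 6.96 to 9.50, and only the phlorizin array carried it past the filter. Its outer medulla values of 4.21 and 5.69 were at or below background, so that their difference is not read here. Cyp2c24 was 1.12 higher in the cortex, and Cyp1b1 differed by -1.23 there, from 6.64 to 5.41, which is below background and makes the difference a bound. In all, 2 of 27 genes were at least 1 higher in the cortex (background 0.653%) and 1 lower (0.501%), and in the outer medulla 1, Cyp2c11 at background, was higher (0.577%) and 0 lower (0.205%). The count in both zones was 1 higher, the same gene (background 0.0304%), and 0 lower (0.0152%). With the stricter filter no gene was at least 1 higher in either zone, since neither Cyp2c gene passed it. Medians were 0.04 and 0.00, beside -0.06 and -0.01. The phlorizin array of the cortex serves both this comparison and that of EG under phlorizin, so a high value on it enters both. The limma fit of phlorizin over both zones called none of the 27 and none of 13163 probe sets (0%). At an unadjusted limma p under 0.05 it had 2 of the 27, Cyp2c11 (1.34, SE 0.34) and Cyp1b1 (-1.56, SE 0.47), against 3.56% of all.

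Among EG animals, values with phlorizin were mostly higher in the cortex and mostly lower in the outer medulla (20 and 19 of 27 genes). Signs were opposite in the zones for 14 of the 27, or 51.9%, and for 39.9% of all tested probe sets. In the cortex 9 of 27 genes were at least 1 higher with phlorizin than without (33.3%, background 7.35%) and 1 lower (6.18%). The outer medulla had 11 genes at least 1 lower (40.7%, background 4.34%) and 1 higher (3.35%). Most of these differences lay between 1 and 1.5, and at a threshold of 1.5 the counts were 3 higher in the cortex and 2 lower in the outer zone. The share of all tested probe sets past 1.5 is not given here, so these 2 counts are not set against a background. These comparisons share the EG arrays with those of EG against control, and in the cortex that is the array with the low spike-ins. The cortex genes were led by Cyp2d5 (3.06), Cyp2d1 (from 8.47 to 11.47) and Ugt2b35 (2.20), with Cyp4f1 1.41 and Cyp2e1 1.13 higher. Of the 11 in the outer medulla, 10 were genes that fell in the outer medulla in the zone fit, with Cyp4a8 at -2.71, Cyp4a2 at -1.31, Cyp2c23 at -1.28, Cyp4f1 at -1.28 and Cyp2e1 at -1.18. Cyp2e1 went from 6.88 to 5.69 there, which is near background. The last of the 11 was Cyp1b1, at -2.39 there and -2.78 in the cortex, and it was the only gene at least 1 lower in both zones (background 1.71%), while none was at least 1 higher in both (1.15%). Cyp2r1 was 1.43 higher in the outer medulla. Among 12 markers of the first proximal segments that zone had 4 at least 1 lower and 2 at least 1 higher, with a median of -0.51, and their part in the P450 values was not tested. The plot of the shares past a difference of 1 sets each comparison beside the background.

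**Figure D4:**
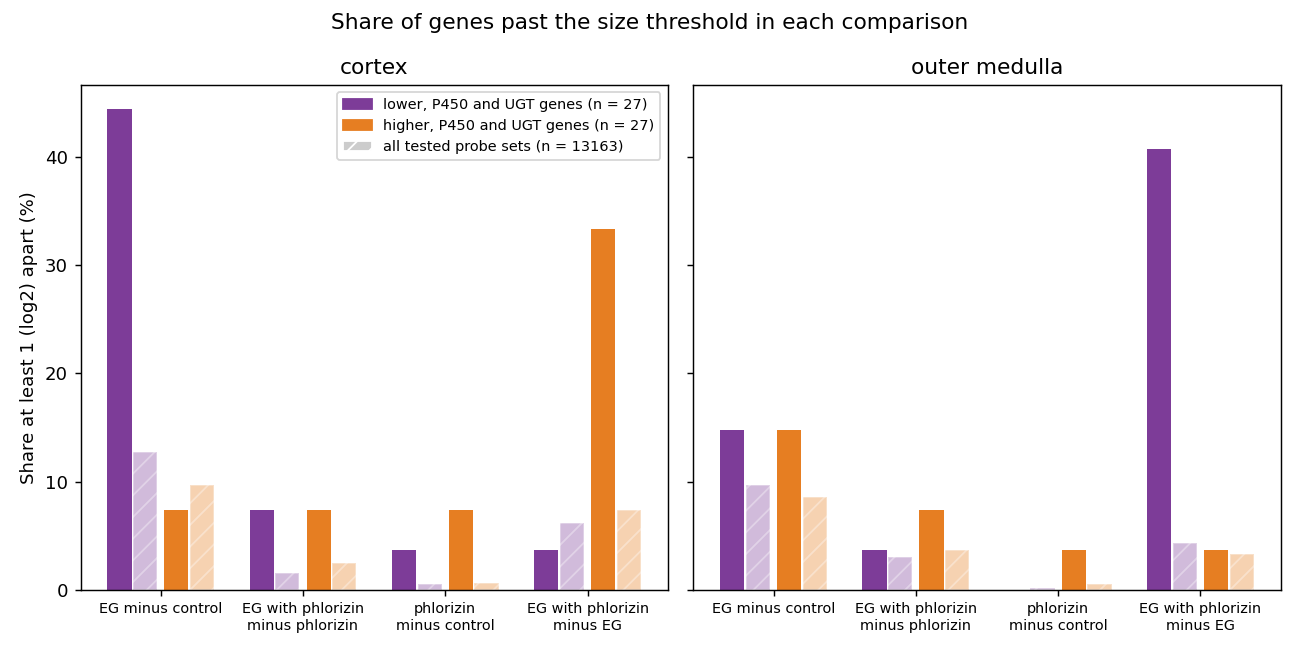
Bars give the percent of genes at least 1 lower (purple) or higher (orange) on the log2 scale in each comparison, for the 27 tested P450 and UGT genes (solid) and all 13163 tested probe sets (hatched), in the cortex on the left and the outer medulla on the right. The tallest bars are the 44.4% lower with EG in the cortex and the 40.7% lower with EG and phlorizin than with EG in the outer medulla, a count that goes from 11 to 2 genes at a threshold of 1.5. No background is given at 1.5.

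Of 28 genes that serve these enzymes, 26 were on the array and 24 were tested. They comprise electron and heme donors, suppliers of UDP-glucuronic acid, enzymes that use the products, and regulators. Between zones 15 fell in the outer medulla and 5 rose, beside 18.8% and 32.7% of all tested probe sets. For EG, for phlorizin and for the EG difference between zones limma called none, beside 0.038%, 0% and 0.0228% of all. The EG array of the cortex had 10 of the 24 at least 1 lower (background 12.7%) and 1 at least 1 higher (9.66%), with a median of -0.78. That of the outer medulla had 6 (9.69%) and 0 (8.58%), with a median of -0.29. Por, the reductase that feeds electrons to P450 enzymes, stood at 13.70 in the control cortex and 12.51 with EG, and at 12.70 and 11.59 in the outer medulla, with differences under phlorizin of -0.54 and -0.74. Cyb5a, which encodes cytochrome b5, stood at 13.89 in the control cortex and 12.21 with EG, and at 12.46 and 11.57 in the other zone, with -0.12 and -0.63 under phlorizin. Ephx2, which hydrolyses the epoxides of arachidonic acid, went from 11.85 to 10.51 in the cortex, and stood at 8.76 and 9.02 in the other zone, with a cortex difference of -0.07 under phlorizin. With EG and phlorizin the differences from phlorizin were smaller, with 1 of 24 at least 1 lower for cortex (background 1.55%) and 2 for outer medulla (3.01%).

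The genes of that list that varied most over the arrays were Hnf4a, Ptgs2 and Ptgs1, with Cyp24a1 above them among the P450 genes left out of the families. Hnf4a, a transcription factor of the proximal tubule and liver, stood between 14.21 and 15.03 in the cortex and between 6.24 and 8.02 in the outer medulla, where the EG array was the highest. Ptgs2 and Ptgs1 encode the cyclooxygenases, which compete with P450 enzymes for arachidonic acid. Ptgs2 stood at 9.34, 6.89, 8.92 and 7.63 in the cortex with control, EG, phlorizin and both, and at 13.14, 10.94, 14.13 and 14.39 in the outer medulla. Ptgs1 stood between 6.90 and 8.32 in the cortex and between 12.22 and 13.12 in the outer medulla. Cyp24a1 went from 12.05 to 15.64 with EG in the cortex and from 13.52 to 16.59 under phlorizin. Ppara, the fatty acid receptor that induces Cyp4a genes and a gene named after its values were seen, stood at 12.34, 8.55, 12.72 and 12.08 in the cortex and at 10.30, 7.56, 10.59 and 8.81 in the outer medulla. It was thus lowest on the EG array of each zone. In the cortex Cyp4a1 and Cyp4a2 were lowest on that array too, at 13.88 and 16.91, while Cyp4a8 stood at 16.75 there. The outer medulla went the other way, with Cyp4a1, Cyp4a2 and Cyp4a8 each highest on its EG array, at 8.15, 13.12 and 13.23. The part of Ppara in the Cyp4a values was not tested.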

How the data were processed

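RNA of the renal cortex and outer medulla was read on Clariom S arrays. The values deposited by the authors are on a log2 scale. RMA is the tool that the submitters' processing notes name. Its version was not stated there, and the base was inferred from the range. The table held 24834 probe sets, of which 1646 controls and others were left out. Of the 23188 for transcripts, 15049 had a gene name, and 8139 had none in the tables used here. For a symbol with several probe sets the one with the highest mean was kept. Array medians lay between 7.39 and 7.58, and no further normalization was done. Arrays carry no read depth, and their number limits the precision.

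Probe sets with a highest value of at least 7.54 were tested, 13163 in all. limma 3.58.1 in R 4.3.3 was used, with 2-sided p-values adjusted by Benjamini-Hochberg over all of them at 0.05. Zones were compared over 8 arrays with the treatment as a block. EG and phlorizin were fitted on 4 profiles, each the mean of both zones, and the EG difference between zones on the 4 differences between zones. The labels do not state separate animals, so p-values measure only the spread between these samples. Within zones only differences were taken, with 1 as the size threshold. The main limma fits were tested on simulated arrays, with set changes by zone, by EG and by EG in the outer medulla alone. No phlorizin change was simulated, and the simulated run did not cover the other steps. The genes and lists were chosen with earlier results of these data known. Named genes were up to 4 tested ones per role group with the largest range, those called by limma, the 5 highest and lowest in each comparison (by the zone with the smaller difference) and the 3 with the smallest range. Some are given by their differences alone. Promoters came from RefSeq (GRCr8), were aligned with Biopython 1.88, and were not part of the array data. Motifs were chosen after the values were seen. Alternatives covered normalization, filter, probe set, variance prior, unit of the fit and size threshold. Python 3.11.15, pandas 2.3.3 and matplotlib 3.10.9 were used.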

Additional observations from a re-analysis of the deposited data

Results flagged for a closer look

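Cyp2e1, Cyp4a1 and Cyp4f6 had EG differences of opposite sign in the zones in both phlorizin arms, with lower cortex values and higher ones in the outer zone. The EG difference in the outer medulla minus that in the cortex was 1.45 for Cyp2e1, 1.07 for Cyp4a1 and 0.27 for Cyp4f6. The limma test of this difference gave adjusted p-values of 0.601, 0.52 and 0.823, so none was called. For Cyp4f6 all 4 differences were 0.25 or less in size, and Cyp2e1 was near background in the outer medulla.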

How the results depend on the processing

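The labels give no replicate numbers, and the zone fit pairs the arrays of a treatment. Of the zone calls, 15 lower and 7 higher, leaving out 1 treatment at a time gave 11 to 16 lower and 5 to 7 higher, and without the treatment block 4 were higher. The fit without the block called 41% of all tested probe sets in either direction. The EG fit over both zones called 0 of the 27 genes, but 2 higher and 2 lower with each array centred on its median, 2 and 2 without the filter, 2 and 1 with the 8 arrays as samples, and 1 lower with the cortex arrays alone. The genes were Cyp1b1 and Cyp7b1, with Cyp2c24 and Cyp2c11 lower, Ugt8 lower with the 8 arrays, and Cyp2c24 with the cortex arrays. Over all probe sets, these settings called 5.67%, 2.72% (of 23176, with 68 genes), 12.9% and 0.0532% in either direction, in the same order. The cause of these changes of call was not tested. Cyp2c24 and Cyp2c11 passed the filter only through cortex arrays without EG, and Cyp1b1 only through arrays with EG. The phlorizin fit and the fit of EG between zones called none of these genes under any alternative run. With a size threshold of 1.5, EG against control had 1 gene higher for cortex and 1 lower for outer medulla, and EG with phlorizin against EG had 3 higher for cortex, and 2 lower and 0 higher for outer medulla. EG under phlorizin then had 1 higher for cortex, and 0 higher and 0 lower for outer medulla, and phlorizin against control had 1 higher and 0 lower for cortex and 0 higher for outer medulla. With the stricter filter EG under phlorizin had 0 lower for cortex, and phlorizin against control 0 higher for either zone. Without the filter, with 68 genes, phlorizin against control had 3 higher for outer medulla, 5 were higher with EG in the cortex, and for EG with phlorizin against EG 3 were lower for cortex and 2 higher for outer medulla. For these counts between treatments no share of all probe sets is given at 1.5, with the stricter filter or without the filter. They are therefore not set against a background. For single genes, 20 of the 321 alternative values of the zone fit lost their call and 3 gained one, all in the same direction. Signal near background limits genes such as Cyp2c11 in the outer medulla.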
